A study of Rattus norvegicus with 4 samples.

Results

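The muscarinic acetylcholine receptor genes Chrm1, Chrm2, Chrm3 and Chrm4 were followed across the cell types of the rat nucleus accumbens. They are 4 of the 30560 genes in the deposited feature lists and were taken by symbol, with the identifiers ENSRNOG00000018385, ENSRNOG00000046972, ENSRNOG00000049410 and ENSRNOG00000017556 in that order. Single nuclei came from adult Sprague-Dawley rats, 90 to 120 days old, injected intraperitoneally once a day for 7 days with either saline or cocaine (20 mg per kg) with tissue collected 1 hour after the final dose. A punch of 2 mm centred on the accumbens core was taken from each of 16 rats, and the tissue of 4 rats of one sex and treatment was combined into 1 library. The 4 libraries were saline female, saline male, cocaine female and cocaine male, and values below stand in that order unless said otherwise. Each treatment therefore had 2 pools, 1 of each sex, and no value can be traced to a single rat. In tests of cocaine, p-values rest on the spread between these pools. In tests between gates they rest on the spread, over the pools, of differences within a pool. Both kinds of test also borrow from the spread of other genes, and neither measures the spread between rats. The title of the series concerns the response of subpopulations of D1 medium spiny neurons, projection neurons marked by the dopamine receptor D1, to cocaine.

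Muscarinic receptors are G protein-coupled receptors for acetylcholine, which in the striatum is released mainly by local cholinergic interneurons. M1, M3 and M5, encoded by Chrm1, Chrm3 and Chrm5, couple to Gq and phospholipase C, which raises calcium and closes KCNQ potassium channels. M2 and M4, encoded by Chrm2 and Chrm4, couple to Gi/o, which lowers cyclic AMP and opens Kcnj (GIRK) potassium channels. In the striatum M1 is known as the receptor of spiny projection neurons in general, M4 as that of the direct pathway, and M2 as an autoreceptor of cholinergic interneurons.

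The stretches of genome just before Chrm3 and Chrm4 are shown because these 2 genes differed most between D1 and D2 nuclei, in opposite directions. Each is the plus strand over the 250 bases before the RefSeq start in the GRCr8 assembly, 5′ to 3′, at chr17:64696677-64696926 for Chrm3 and chr3:98348830-98349079 for Chrm4. Capitals mark GGGCGG, the core of an SP1 box, and TGACG, a half-site of the cyclic AMP response element, each searched on both strands.
Chrm3: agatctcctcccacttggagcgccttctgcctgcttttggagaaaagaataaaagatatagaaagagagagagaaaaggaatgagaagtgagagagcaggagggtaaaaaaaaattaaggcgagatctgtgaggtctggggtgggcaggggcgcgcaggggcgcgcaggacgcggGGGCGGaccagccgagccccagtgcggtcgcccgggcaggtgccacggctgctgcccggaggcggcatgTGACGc
Chrm4: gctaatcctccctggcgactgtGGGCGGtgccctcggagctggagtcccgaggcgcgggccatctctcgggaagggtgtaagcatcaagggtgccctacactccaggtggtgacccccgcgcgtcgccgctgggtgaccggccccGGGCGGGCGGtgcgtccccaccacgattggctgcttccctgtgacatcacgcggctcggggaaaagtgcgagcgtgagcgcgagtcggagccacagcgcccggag
The Chrm4 window held 3 matches to GGGCGG, of which 2 overlap, and none to TGACG. The Chrm3 window held 1 match to each. The Chrm1 window (chr1:214996109-214996358) held 1 TGACG and the Chrm2 window (chr4:65982200-65982449) held 1 GGGCGG. Over 33469 RefSeq windows of 250 bases, 30.5% held a GGGCGG and 18.2% a TGACG, and the AP-1 site TGANTCA, present in 6.34%, was in none of the 4. The GC content was 58.8% for Chrm1, 62% for Chrm2, 60% for Chrm3 and 70.4% for Chrm4, against a median of 51.2% over all windows. All 4 members had an entry in the table, and a match describes the letters in these windows and no binding. The deposited counts refer to another assembly, named rn7 in the submitters' processing notes, so no coordinate of the counts is used.

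Nuclei were sorted into 13 gates, which are rules on the number of UMIs (counted molecules) of marker genes in a nucleus. No muscarinic receptor gene is among the markers. The D1 gate (markers Drd1, Ebf1, Pdyn, Tac1 and Isl1) held 3405 nuclei, the D2 gate (Drd2, Adora2a, Penk, Gpr6 and Gpr52) 3300, and the gate of eccentric spiny neurons (Casz1, Otof and others, with D1-type and D2-type nuclei together) 897. Of the D1 nuclei, 428 were at the lowest marker count that enters the gate, as were 81 of the D2 and 151 of the eccentric nuclei. Other neuron gates were Sst/Npy interneurons with 203 nuclei, Pthlh/Kit interneurons with 178, cholinergic interneurons with 71, glutamatergic neurons with 325, and groups called by their genes only, Grm8/Chst9 with 850 and Klhl1/Htr7 with 262. The markers matched the names: Drd1 was at 130.8 UMIs per 1000000 of the gate (CPM) in D1 and 1.92 in D2 nuclei, Drd2 at 0.844 and 801.2, Casz1 at 321.3 in the eccentric gate, and Chat at 628.5 in the cholinergic gate and 0 in the D1 gate. Pvalb and Slc18a3 were not among the listed symbols. Libraries held 31484217 to 40737786 UMIs with a median of 4363 to 5066 per nucleus, 19294 of the 24843 nuclei kept after filtering were in 1 gate, and 81 barcode sequences occurred in more than 1 library. The cocaine male library had the fewest cholinergic (4), Klhl1/Htr7 (14) and Pthlh/Kit (24) nuclei. Nuclei that met no gate held 37.0% to 48.4% of the Chrm2 UMIs and 30.4% to 44.3% of the Chrm3 UMIs of a library.

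Chrm1 was found in both kinds of spiny neuron and in glutamatergic neurons at levels that overlapped, and was near 0 in the interneuron gates. The D1 gate had 37.6, 30.8, 43.8 and 36.2 CPM, a mean of 37.1 ± 5.35 (SD, n = 4 libraries). The D2 gate had 35.4, 31.1, 39.9 and 32.9 CPM, a mean of 34.8 ± 3.82. These ranges overlapped, and those of glutamatergic (33.0 ± 8.64), eccentric (30.9 ± 6.0) and Grm8/Chst9 nuclei (27.1 ± 4.09) overlapped with the next higher gate in turn. Below them was a gap, since the next gate, Pthlh/Kit, had a mean of 3.19 ± 2.54 CPM and no library above 6.19. Sst/Npy nuclei had 0, 0, 7.25 and 3.82 CPM, which was 4 UMIs in 203 nuclei. In cholinergic nuclei 1 Chrm1 UMI was counted, in the saline male library. Chrm1 was seen in 26.0% of D1 nuclei (exact 95% binomial interval 24.6% to 27.6%, counting error only), 23.3% of D2 nuclei and 30.5% of glutamatergic nuclei. With every nucleus thinned to 3000 UMIs, and shallower ones left out (24 of the D1 and 15 of the D2 nuclei), these shares became 11.1%, 10.4% and 10.5%.

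Chrm3, which couples to Gq like Chrm1, had another distribution: highest in glutamatergic and Sst/Npy neurons, intermediate in D2 nuclei and low in D1 nuclei. Glutamatergic nuclei had 786, 702, 861 and 902 CPM (813 ± 88.0), and Sst/Npy nuclei 743, 650, 810 and 813 CPM (754 ± 76.3). The ranges of these gates overlapped and lay above those of all other gates. Klhl1/Htr7 (393 ± 134), Grm8/Chst9 (293 ± 72.9), Pthlh/Kit (244 ± 70.2) and D2 nuclei (176 ± 20.7) followed, each overlapping with the next. The D2 gate had 206, 164, 162 and 170 CPM, with the saline female library above the other three. Eccentric nuclei had 109, 97.1, 75.2 and 79.0 CPM. Cholinergic nuclei had 149, 23.6, 32.9 and 0 CPM (51.5 ± 66.7), each library below the lowest D2 library. The D1 gate had 16.3, 8.42, 10.2 and 6.72 CPM (10.4 ± 4.19), and its highest library was far below the lowest D2 library. Chrm3 was seen in 39.4% of D2 nuclei (37.7% to 41.1%) and 3.38% of D1 nuclei (2.80% to 4.04%), at median depths of 7480 and 8132 UMIs. After thinning the shares were 26.5% and 1.69%, beside 1.06% in astrocyte and 0.179% in oligodendrocyte nuclei.

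Among glial gates Chrm3 was concentrated in oligodendrocyte precursors. These had 84.0, 113, 95 and 75.3 CPM, a range that overlapped with the eccentric gate. Mature oligodendrocytes had 1.85, 1.99, 5.06 and 1.22 CPM. The precursor level was 34.5 times that of oligodendrocytes (95% counting interval 23.8 to 51.4) and 21.6 times that of astrocytes (14.03 to 34.6). Chrm3 was seen in 15.6% of 621 precursor nuclei, at a median of 2827 UMIs. The other 3 members had at most 10.0 CPM in any library of the precursor gate, and Chrm4 was not detected in 744 microglia, which allows a share of nuclei with a Chrm4 UMI of up to 0.403% and sets no limit on nuclei that express it.

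Chrm4, the Gi/o-coupled receptor of the direct pathway, was the member that set D1 apart from D2 nuclei most. The D1 gate had 78.5, 91.2, 84.9 and 97.0 CPM (87.9 ± 8.00), and the eccentric gate 67.8, 78.8, 94.6 and 82.6 CPM (80.9 ± 11.1). The D2 gate had 1.20, 2.75, 2.43 and 1.80 CPM (2.05 ± 0.688). D1 and eccentric ranges overlapped, and every D2 library was within the range of the glial gates. Cholinergic (29.5 ± 21.5), Pthlh/Kit (28.6 ± 18.5), Grm8/Chst9 (28.0 ± 7.49) and glutamatergic nuclei (23.2 ± 3.95) lay between, with overlapping ranges. Sst/Npy nuclei had 2 Chrm4 UMIs in all. Chrm4 was seen in 49.8% of D1 nuclei (48.1% to 51.5%) and 1.39% of D2 nuclei (1.02% to 1.85%). Thinned to 3000 UMIs the D2 share was 0.548%, near the 0.637% of astrocytes. By mean level, D2 nuclei lay between oligodendrocytes (2.80 CPM) and astrocytes (1.59 CPM), and microglia had 0. Whether Chrm4 in D2 nuclei stands above background was not tested. D1 nuclei held 45.8% to 57.1% of all Chrm4 UMIs of a library.

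Chrm2, the other Gi/o-coupled member, was high in cholinergic and Sst/Npy interneurons and near background in spiny neurons. Cholinergic nuclei had 523, 553, 675 and 510 CPM (565 ± 75.2), the last from 4 nuclei. Sst/Npy nuclei had 590.0, 664, 520 and 435 CPM (552 ± 97.7). The ranges of these 2 gates overlapped and lay above Pthlh/Kit (218 ± 39.3), Klhl1/Htr7 (158 ± 60.7) and glutamatergic nuclei (135 ± 68.1). Chrm2 was seen in 93.0% of the 71 cholinergic nuclei (84.3% to 97.7%) and 75.9% of Sst/Npy nuclei (69.4% to 81.6%), and after thinning in 73.2% and 65.1%. The D1 gate had 1.75, 0.526, 0.258 and 1.61 CPM and the D2 gate 2.55, 2.75, 2.72 and 0.449 CPM. Thinned shares of 0.177% in D1 and 0.244% in D2 nuclei were close to the 0.179% of oligodendrocytes. That last share is of 560 thinned nuclei and so rests on very few nuclei with a Chrm2 UMI.

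**Figure D1:**
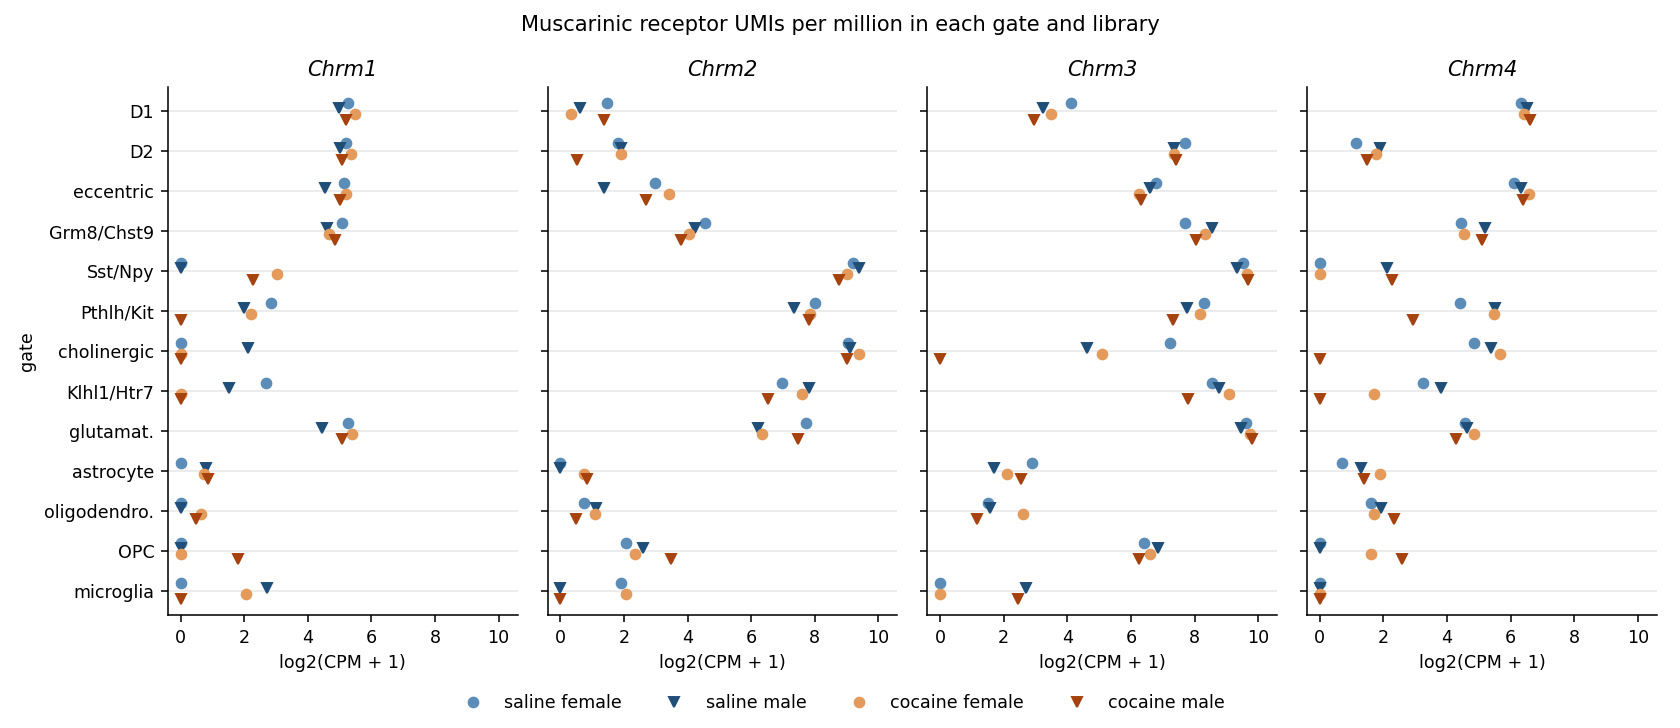
Level of each member as log2(CPM + 1), a log scale on the horizontal axis, in the 13 gates on the vertical axis, with 1 point for each of the 4 libraries (circles female, triangles male, blue saline, orange cocaine). Chrm4 lies between 78.5 and 97.0 CPM in the D1 gate and between 1.20 and 2.75 CPM in the D2 gate, Chrm3 shows the opposite order, and Chrm2 is highest in the cholinergic and Sst/Npy gates.

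The plot of levels by gate and library shows these orders, and a wide spread between libraries for Chrm3 in cholinergic nuclei (149, 23.6, 32.9 and 0 CPM).

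The differences between gates were tested with library as a block, by the quasi-likelihood test of edgeR with adjustment by Benjamini-Hochberg over all genes tested, and log2 differences below come from that fit. Between D1 and D2 nuclei, where 14.6% of 12552 genes were called at an adjusted p under 0.05, 2 of the 4 members were called. Chrm4 was higher in D1 nuclei by 5.41 (SE 0.111, adjusted p = 2.78e-21), in 4 of 4 libraries. As a ratio of pooled UMIs, 2610 in D1 against 54 in D2 nuclei, this was 43.2 times the D2 level (counting interval 33.0 to 57.7). Chrm3 was lower in D1 nuclei, with a log2 difference of -4.10 (95% interval -4.28 to -3.92, adjusted p = 4.24e-21), also in 4 of 4 libraries. Chrm1 had a difference of 0.08 (-0.06 to 0.22, adjusted p = 0.518), and Chrm2 -1.05 (-1.97 to -0.12, adjusted p = 0.140) from 30 and 56 UMIs. The Chrm2 value rests on few molecules and is called when doublets are kept (-1.42, adjusted p = 0.000477) and without the cocaine male library (-1.71, adjusted p = 0.0114).

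Taken as a whole gate, eccentric nuclei lay between D1 and D2 nuclei in Chrm3, and their Chrm4 level overlapped with that of D1 nuclei. The gate holds clusters that differ in both genes, given further below. Against the D1 gate, where 28.3% of genes were called, the D1 minus eccentric difference was -3.08 for Chrm3 (adjusted p = 5.11e-15), 0.31 for Chrm1 (adjusted p = 0.0241) and 0.16 for Chrm4 (0.00 to 0.32, adjusted p = 0.132). The Chrm1 call is lost without TMM scaling (0.27, adjusted p = 0.0597) and when either the saline male (0.27, adjusted p = 0.106) or the cocaine female library (0.30, adjusted p = 0.0883) is left out. The Chrm4 difference is called without the cocaine female library, at 0.26 (adjusted p = 0.0240). Chrm2 did not pass the filter on low counts there. Against the D2 gate, where 28.4% were called, the D2 minus eccentric difference was 1.02 for Chrm3 (adjusted p = 2.48e-12), -5.25 for Chrm4 (adjusted p = 6.62e-21) and -1.40 for Chrm2 (adjusted p = 0.00708), and Chrm1 had 0.23 (0.00 to 0.46, adjusted p = 0.140). The Chrm2 call rests on 56 and 43 UMIs and is lost with doublets kept (-0.36, adjusted p = 0.501) and when either cocaine library is left out (-1.20 and -1.09, adjusted p = 0.0687 and 0.0595).

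The interneuron gates differed from D1 nuclei in all 4 members. For Sst/Npy minus D1 nuclei, with 37% of genes called, the log2 differences were 8.79 for Chrm2 (adjusted p = 2.99e-30), 5.95 for Chrm3 (adjusted p = 4.45e-29), -3.76 for Chrm1 (adjusted p = 7.80e-09) and -5.96 for Chrm4 (adjusted p = 6.36e-15). Chrm1 was thus 11.2 times lower in Sst/Npy nuclei by pooled UMIs (4.38 to 41.4), and Chrm4 53.4 times lower (14.8 to 441), and both intervals are wide because only 4 and 2 UMIs were counted. The Chrm2 ratio of Sst/Npy to D1 nuclei was 544 (378 to 813). Pthlh/Kit nuclei, with 37.4% called, had the same signs, at 7.58 for Chrm2, 4.41 for Chrm3, -3.26 for Chrm1 and -1.67 for Chrm4, with adjusted p of 7.24e-09 or less. Cholinergic nuclei, compared in the 3 libraries with at least 10 of them and with 31.5% called, had 9.13 for Chrm2 (adjusted p = 7.22e-19), 2.09 for Chrm3 (adjusted p = 4.81e-05), -1.40 for Chrm4 (adjusted p = 4.84e-05) and -5.06 for Chrm1 (adjusted p = 2.39e-06), the last from 1 UMI. Chrm3 in cholinergic nuclei came from 47 UMIs in 8.45% of nuclei.

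Glutamatergic nuclei, with 32.7% of genes called against D1 nuclei, had a Chrm1 range that overlapped with that of D1 nuclei and differed in the other 3 members. The glutamatergic minus D1 difference was -0.21 for Chrm1 (-0.53 to 0.12, adjusted p = 0.337), 6.95 for Chrm2 (adjusted p = 4.14e-11), 6.28 for Chrm3 (adjusted p = 1.60e-10) and -1.92 for Chrm4 (adjusted p = 9.00e-07).

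**Figure D2:**
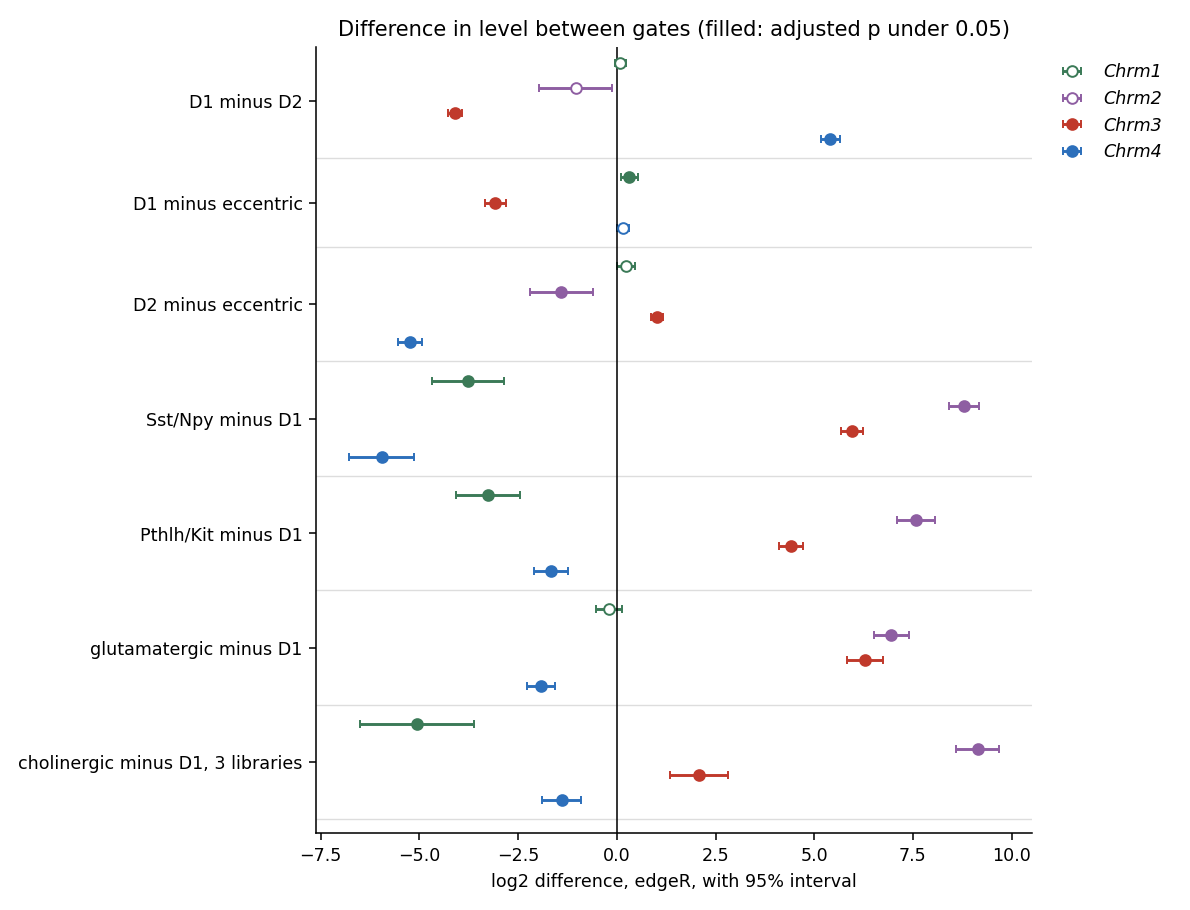
Log2 difference in level between pairs of gates for each member (points) with its 95% interval (bars), from edgeR on sums per library, filled where the adjusted p is under 0.05. Chrm4 is at 5.41 and Chrm3 at -4.10 for D1 minus D2, Chrm2 and Chrm3 lie above 0 in every gate compared with D1 nuclei from the interneuron and glutamatergic gates, and Chrm1 is open at 0.08 for D1 minus D2 and at -0.21 for glutamatergic minus D1.

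In the lower rows of the forest of gate differences, Chrm4 is negative and called for all 4 gates compared with D1 nuclei. Chrm1 is negative for all 4 too, but called only in the 3 interneuron gates.

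The eccentric gate was not uniform in its receptors. Clusters of nuclei, made from 2000 variable genes without regard to the gates, divided most of it into 571 nuclei in cluster 9 and 191 nuclei in cluster 13. Both had Casz1, at 345 and 330 CPM, but cluster 9 nuclei had Drd1 at 105 CPM and Drd2 at 4.66, and cluster 13 nuclei had Drd1 at 0 and Drd2 at 984. Chrm4 was at 106, 109, 117 and 114 CPM in the eccentric nuclei of cluster 9 and at 9.76, 11.3, 15.9 and 12.7 CPM in those of cluster 13. Chrm3 was at 41.6, 43.4, 35.2 and 51.7 CPM in cluster 9 and at 121, 156, 101 and 134 CPM in cluster 13. The 4 libraries of the clusters did not overlap for either gene, and the order followed that of D1 and D2 nuclei. Chrm3 in the Drd1-bearing cluster 9 was nevertheless above all 4 libraries of the D1 gate (6.72 to 16.3 CPM), and Chrm4 in the Drd2-bearing cluster 13 above all 4 libraries of the D2 gate (1.20 to 2.75 CPM), the latter from 20 UMIs. Chrm4 in cluster 9 was also above all 4 libraries of the D1 gate (78.5 to 97.0 CPM). Chrm3 in cluster 13 was below all 4 libraries of the D2 gate (162 to 206 CPM). Chrm1 was at 29.5 CPM in cluster 9 and 38.4 CPM in cluster 13. The clusters were made from the expression of these same nuclei, so no test was made between them.

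D1 nuclei differed among themselves in Chrm3. In cluster 2, with 2419 D1 nuclei and Reln at 418 CPM, Chrm3 was at 3.13, 2.72, 3.86 and 3.28 CPM. In cluster 4, with 864 D1 nuclei and the serotonin receptor gene Htr4 at 656 CPM, it was at 9.92, 16.3, 8.33 and 7.75 CPM. The remaining 122 D1 nuclei, 3.58% of the gate, held 148 of its 305 Chrm3 UMIs (48.5%), at 273, 43.3, 244 and 89.6 CPM. These nuclei also held 21 of the 30 Chrm2 UMIs of the gate. Chrm3 UMIs were few and concentrated: 115 D1 nuclei had any, and 32 nuclei with 3 or more held 67.9% of them. A test that uses no cluster compared 882 D1 nuclei with Reln and without Htr4 UMIs with 672 with Htr4 and without Reln UMIs. Chrm3 was lower in the Reln nuclei, with a log2 difference of -2.43 (-3.20 to -1.66, adjusted p = 1.14e-05) against 16.8% of genes called. It rests on 21 and 78 UMIs, and the Htr4 nuclei had 31.5, 9.92, 5.51 and 11.2 CPM against 4.39, 0, 2.51 and 2.95 CPM in the Reln nuclei, higher in 4 of 4 libraries. Leaving out each library in turn gave -2.73 to -2.13, all called. The subsets were not limited to clusters 2 and 4, so they can hold some of the other 122 D1 nuclei. The part of those nuclei in the difference was not tested. Over all libraries, Chrm3 was at 10.95 CPM in D1 nuclei of cluster 4 and 3.26 CPM in those of cluster 2. Chrm4 did not separate the Reln and Htr4 nuclei, at 96.3 and 96.5 CPM with a difference of 0.04 (-0.16 to 0.25, adjusted p = 0.849), and Chrm1 had 0.30 (0.03 to 0.58, adjusted p = 0.143). In the 67 D1 nuclei with Oprm1 and Tll1 UMIs, Chrm4 was at 99.3 CPM and Chrm3 had 1 UMI.

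**Figure D3:**
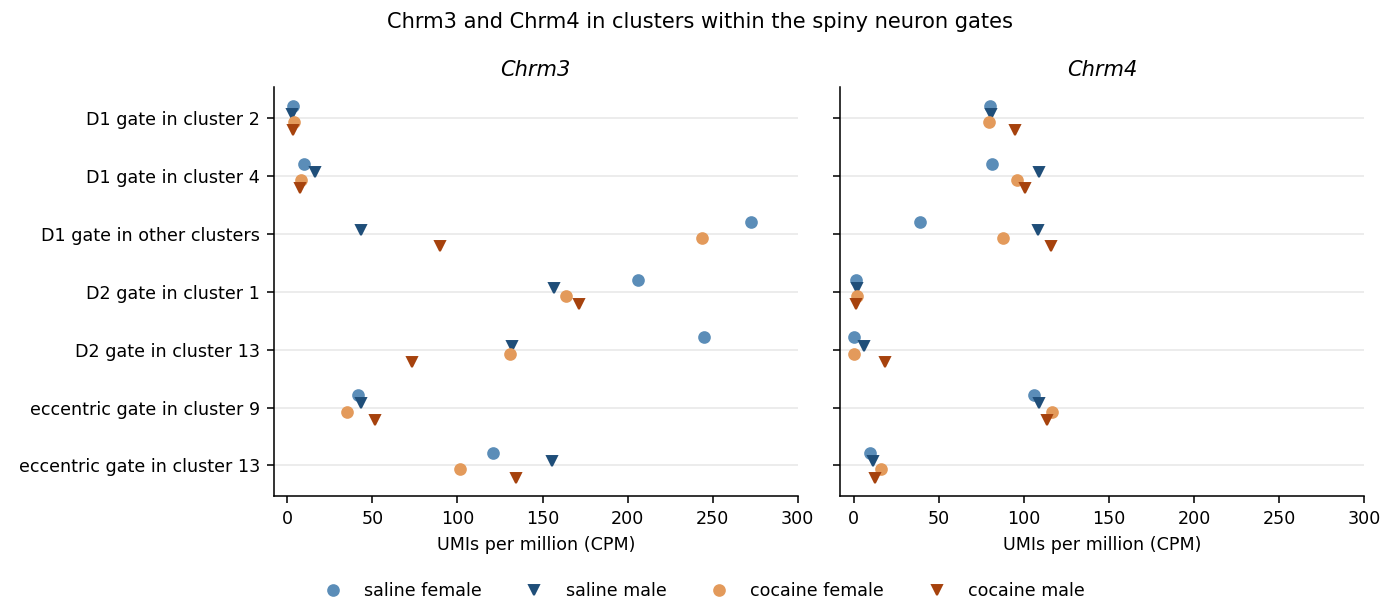
Level of Chrm3 (left) and Chrm4 (right) in CPM on linear axes, in nuclei of the D1, D2 and eccentric gates divided by cluster, 1 point for each of the 4 libraries. Eccentric nuclei of cluster 9 have 106 to 117 CPM of Chrm4 and those of cluster 13 have 9.76 to 15.9, and the 122 D1 nuclei outside clusters 2 and 4 are spread from 43.3 to 273 CPM of Chrm3.

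The plot by cluster also shows that D2 nuclei kept a high Chrm3 level in both clusters drawn for them, at 175 CPM in the 3161 nuclei of cluster 1 and 138 CPM in the 82 nuclei of cluster 13. Cluster 13 held more eccentric than D2 nuclei, and the few D2 nuclei of further clusters are not drawn. In glutamatergic nuclei the clusters differed in Chrm2 and Chrm3. The 155 nuclei of cluster 15 had 28.8 CPM of Chrm2 and 513 CPM of Chrm3, and the 157 nuclei of cluster 17 had 191 and 1134 CPM. Chrm1 was at 42.2 and 32.3 CPM. The libraries drew on these clusters unequally, with 4, 23, 106 and 22 nuclei in cluster 15 and 21, 10, 67 and 59 in cluster 17.

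At equal depth, members were seldom counted in the same nucleus of the D1 and D2 gates and more often in the Sst/Npy and glutamatergic gates. Of 195 thinned Sst/Npy nuclei, 44.6% had UMIs of both Chrm2 and Chrm3, and the product of the 2 shares was 46.8%. Of 3381 thinned D1 nuclei, 2.37% had Chrm1 and Chrm4 together (product 2.50%). Of 3285 thinned D2 nuclei, 2.25% had Chrm1 and Chrm3 (product 2.76%). Chrm3 and Chrm4 were together in 1.36% of 885 thinned eccentric nuclei, where the product was 2.90%, and the joint share was below the product in each of the 4 libraries. This gate pools clusters that differ in both genes. Before thinning, Chrm4 was seen in 52.2% of its nuclei in cluster 9 and 8.38% in cluster 13, and Chrm3 in 14.5% and 37.7%. The part of this makeup in the joint share was not tested. In the cholinergic gate 77.5% of nuclei had exactly 1 member, and exactly 2 members were seen in 24.6% of glutamatergic, 16.0% of Klhl1/Htr7 and 11.2% of Pthlh/Kit nuclei. Chrm2 and Chrm3 were together in 16.9% of 325 thinned glutamatergic nuclei. These shares describe detection at 3000 UMIs per nucleus.

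Cocaine and saline were compared within the 6 neuron gates with at least 25 nuclei in every library, by edgeR's quasi-likelihood test with sex as a covariate. None of the 22 member and gate combinations that passed the filter on low counts (of 24) was called, and 4 had an unadjusted p under 0.05: Chrm3 in the D1, D2 and eccentric gates and Chrm2 in the Sst/Npy gate. The background was low too, with 0.0314% of genes called in the D1 gate, 0.112% in the D2, 0.711% in the eccentric, 0.0528% in the Grm8/Chst9, 0.268% in the Sst/Npy and 0% in the glutamatergic gate. In the D1 gate 4 of 12740 genes were called, 1037 had an unadjusted p under 0.05, and DESeq2 called 9. An unadjusted p under 0.05 was also seen for 1130 of 12511 genes in the D2, 851 of 10549 in the eccentric and 424 of 5605 in the Sst/Npy gate. In the glutamatergic gate 0 genes were called and 202 had an unadjusted p under 0.05. DESeq2 and the other alternatives put no member with at least 100 UMIs past the threshold in any of these gates.

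In D1 nuclei Chrm4 had a log2 fold change of 0.08 for cocaine minus saline (-0.09 to 0.26, adjusted p = 0.794). Its saline libraries were at 78.5 and 91.2 CPM and its cocaine libraries at 84.9 and 97.0 CPM, so the groups overlapped. Chrm1 had 0.21 (-0.02 to 0.43, adjusted p = 0.628), with each cocaine library above the saline library of its sex (43.8 against 37.6 CPM in females and 36.2 against 30.8 in males). Leaving out 1 library, in fits without the sex covariate, gave 0.05 (without cocaine female) to 0.37 (without saline female) for Chrm1. Chrm3 had -0.54 (-0.97 to -0.12, adjusted p = 0.589), and -0.25 in the stricter gate (adjusted p = 0.787). D1 nuclei outside clusters 2 and 4 held 84 of 112, 8 of 64, 39 of 79 and 17 of 50 Chrm3 UMIs. The part of these 122 nuclei in the Chrm3 value was not tested. In cluster 2 Chrm3 was at 3.13 and 2.72 CPM in saline and 3.86 and 3.28 CPM in cocaine libraries. In cluster 4 the order was the other way, with 9.92 and 16.3 CPM in saline and 8.33 and 7.75 CPM in cocaine libraries. In the whole gate, without the saline female library and the sex covariate, the Chrm3 fold change was 0.00. That fit set cocaine libraries of both sexes against the saline male library alone. Within a sex, the log2 ratio of cocaine to saline was -0.68 in females and -0.32 in males. Taken apart, neither subset of D1 nuclei had a called member among those that passed the filter on low counts. Chrm2 did not pass in either subset, and Chrm3 did not pass in Reln nuclei. In Reln nuclei, with 1.15% of genes called, Chrm1 was at 37.3 and 31.4 CPM in saline and 47.7 and 42.2 CPM in cocaine libraries, which do not overlap, with a log2 fold change of 0.39 (0.02 to 0.76, adjusted p = 0.465). Chrm4 had -0.07 there (-0.35 to 0.21, adjusted p = 0.922). Reln, whose UMIs set this subset, was itself at 675 and 607 CPM in saline and 1113 and 1071 CPM in cocaine libraries of it. The part of this in the values of the subset was not tested. In Htr4 nuclei, with 0.0392% of genes called, Chrm4 had 0.14 (-0.18 to 0.47, adjusted p = 0.913). Chrm1 had 0.21 in these nuclei (-0.25 to 0.67, adjusted p = 0.913) and Chrm3, from 78 UMIs, -1.26 (-2.26 to -0.26, adjusted p = 0.767). The Htr4 nuclei can include D1 nuclei outside clusters 2 and 4, whose part in the Chrm3 value was not tested. In D1 nuclei of cluster 4, Chrm3 was at 9.92 and 16.3 CPM in saline and 8.33 and 7.75 CPM in cocaine libraries. The difference between the subsets in the effect, with 0.0583% of genes called, was 0.14 for Chrm1 (adjusted p = 0.978) and -0.21 for Chrm4 (adjusted p = 0.942). For Chrm3, from few UMIs, it was 1.57 (-0.06 to 3.19, adjusted p = 0.844).

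Among D2 nuclei Chrm3 had a log2 fold change of -0.19 (-0.38 to -0.01, adjusted p = 0.518). The 206 CPM of the saline female library stood above 162 in the cocaine female library, while the males had 164 and 170 CPM, a log2 ratio of -0.35 in females and 0.05 in males with 1 library of each treatment. Chrm1 in D2 nuclei had 0.09 (-0.15 to 0.32, adjusted p = 0.862). The difference between the effect in D1 and in D2 nuclei, tested as an interaction with 0.215% of genes called, was 0.13 for Chrm1 (-0.14 to 0.41, adjusted p = 0.901) and -0.33 for Chrm3 (-0.74 to 0.08, adjusted p = 0.780). The shares of D2 nuclei with a Chrm3 UMI were 47.8%, 35.1%, 38.4% and 38.2%, with the saline female library highest as it was in level.

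Eccentric nuclei gave the smallest unadjusted p of a member, 0.00477 for Chrm3. Its saline libraries were at 109 and 97.1 CPM and its cocaine libraries at 75.2 and 79.0 CPM, which do not overlap, with a log2 fold change of -0.42 (-0.71 to -0.13, adjusted p = 0.244). With clusters in place of the gate it was -0.12 (adjusted p = 0.901). Within cluster 9 the groups did overlap (41.6 and 43.4 CPM in saline, 35.2 and 51.7 in cocaine), as they did within cluster 13 (121 and 156, 101 and 134 CPM). Cluster 13 held 47 of 188, 57 of 255, 38 of 232 and 49 of 222 eccentric nuclei. The part of this makeup in the Chrm3 value was not tested. Chrm4 had 0.28 (-0.02 to 0.58, adjusted p = 0.679), with 67.8 and 78.8 CPM in saline and 94.6 and 82.6 CPM in cocaine libraries, and Chrm1 had 0.25 (-0.18 to 0.67, adjusted p = 0.876). In this gate the prior degrees of freedom of the fit were infinite, so all genes shared 1 trend of the spread.

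For Sst/Npy interneurons, Chrm2 had 590.0 and 664 CPM in saline and 520 and 435 CPM in cocaine libraries, groups that did not overlap. The log2 fold change was -0.42 (-0.81 to -0.03, adjusted p = 0.629). Chrm3 was at 743 and 650 CPM in saline and 810 and 813 CPM in cocaine libraries, also without overlap, with a log2 fold change of 0.19 (-0.17 to 0.55, adjusted p = 0.868). The gate held 30, 55, 67 and 51 nuclei, and with the cluster of these neurons in place of the gate the Chrm2 value was -0.19 (adjusted p = 0.828) and the Chrm3 value -0.24 (adjusted p = 0.743). In Grm8/Chst9 nuclei Chrm3 had 0.05 (-0.31 to 0.41, adjusted p = 0.984), Chrm1 -0.15 (-0.75 to 0.44, adjusted p = 0.971) and Chrm4 -0.03 (-0.62 to 0.56, adjusted p = 0.996).

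In glutamatergic nuclei the intervals were the widest of those drawn. Chrm2 had a log2 fold change of -0.22 (-1.54 to 1.09), Chrm3 0.17 (-0.58 to 0.92) and Chrm1 0.26 (-0.56 to 1.07), all with an adjusted p of 1.00. The Chrm2 level was 209, 73.4, 80.5 and 176 CPM, high in the saline female and cocaine male libraries. Cluster 17, where Chrm2 was at 191 CPM, held 21 of 31, 10 of 34, 67 of 177 and 59 of 83 nuclei of the gate, and its larger shares were also in the saline female and cocaine male libraries. Its part in the Chrm2 levels was not tested. Pthlh/Kit nuclei were tested although the cocaine male library held 24, with 0.0351% of genes called, and Chrm2 had 0.04 (-0.44 to 0.53, adjusted p = 0.988) and Chrm3 -0.28 (-0.73 to 0.18, adjusted p = 0.9754). In oligodendrocyte precursors, where 0% of genes were called and 357 had an unadjusted p under 0.05, Chrm3 had -0.18 (-0.73 to 0.36, adjusted p = 0.936). No member passed the filter on low counts in astrocytes, oligodendrocytes or microglia, where 0.81%, 0.869% and 0% of genes were called.

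**Figure D4:**
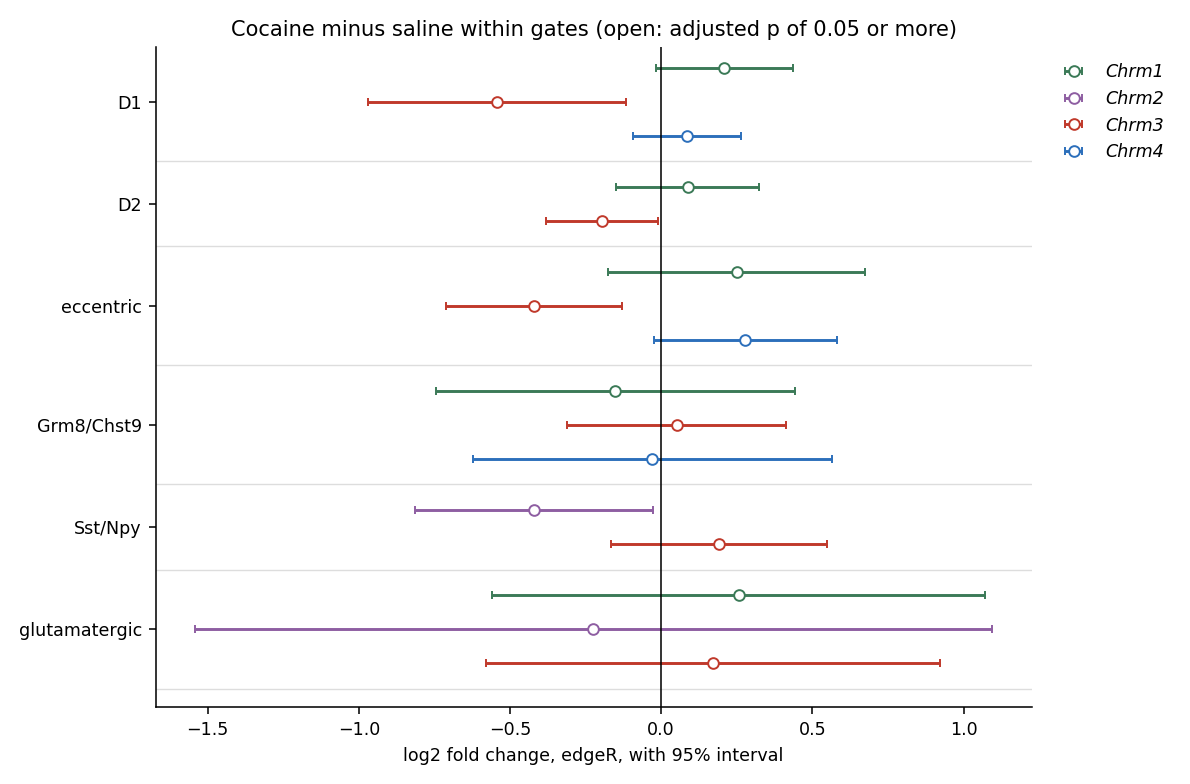
Log2 fold change of cocaine against saline with its 95% interval, from edgeR with sex as a covariate, for the 16 combinations of a member and a gate with at least 100 UMIs, all drawn open because no adjusted p was under 0.05. The interval of Chrm4 in the D1 gate runs from -0.09 to 0.26 and that of Chrm2 in the glutamatergic gate from -1.54 to 1.09.

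The forest of cocaine fold changes shows how much each gate could resolve. The intervals of Chrm4 and Chrm1 in D1 nuclei end at 0.26 and 0.43 on the log2 scale, while those of the 3 members drawn for glutamatergic nuclei reach 0.92 or more.

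The other genes of muscarinic signalling were taken from a list of 49, of which 47 were listed in the files. Chat, which makes acetylcholine, was at 628.5 CPM in the cholinergic gate and the choline transporter gene Slc5a7 at 693.1, and both are markers of that gate. The esterase gene Ache, which breaks acetylcholine down and is no marker, was at 154.6 CPM there. Ache was also at 62.7 CPM in Sst/Npy and 13.2 CPM in D1 nuclei. Between D1 and D2 nuclei 36 of the 47 were tested, of which 10 were higher and 6 lower in D1 nuclei and 20 did not pass, with a median log2 difference of 0.03 beside 0.00 over all genes. Over all tested genes 7.98% were higher and 6.6% lower in D1 nuclei. On the Gi/o side Kcnj6, a GIRK channel subunit that M4 can open, was higher in D1 nuclei by 1.97 and the G protein gene Gnai1 by 0.88, while Gnao1 was lower, at -0.35. On the Gq side the protein kinase C genes Prkca (0.97) and Prkcb (0.16) were higher in D1 nuclei, as were Kcnq5 (0.20), Plcb4 (0.32) and the IP3 receptor gene Itpr1 (0.18), and Itpr2 (-0.61), Plcb1 (-0.09) and Kcnq3 (-0.09) were lower. Of the genes for desensitisation and RGS proteins, which shorten G protein signals, Grk3 (1.05) and Grk5 (0.34) were higher and Rgs8 (-0.48) and Rgs9 (-0.19) lower. The most abundant of each branch by UMIs in all gates were Ache, Chrna7, Kcnq5, Adcy5 and Rgs7.

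Against D1 nuclei, 2 of the 4 GIRK subunit genes of the list, Kcnj6 and Kcnj3, were higher in the Sst/Npy, Pthlh/Kit and glutamatergic gates. In Sst/Npy nuclei the log2 differences were 3.29 for Kcnj6 and 1.12 for Kcnj3, in Pthlh/Kit nuclei 4.68 and 3.69, and in glutamatergic nuclei 6.44 and 3.69. Kcnj9 was higher in glutamatergic nuclei, by 0.92 (adjusted p = 0.00145), and had -0.34 in Sst/Npy (adjusted p = 0.492) and 0.18 in Pthlh/Kit nuclei (adjusted p = 0.711), while Kcnj5 did not pass the filter on low counts. Cholinergic nuclei, in which the list was not tested, had Kcnj6 at 25.3 and Kcnj3 at 250.9 CPM, beside 5.30 and 30.4 CPM in D1 nuclei. Rgs9 and Adcy5, the striatal adenylyl cyclase gene, were lower in the 3 tested gates, at -3.27 and -3.11 in Sst/Npy nuclei, -5.47 and -3.80 in Pthlh/Kit nuclei and -5.0 and -3.10 in glutamatergic nuclei. Of the tested genes of the list, 9 of 35 were higher and 12 lower in Sst/Npy, 7 of 35 higher and 11 lower in Pthlh/Kit, and 10 of 36 higher and 9 lower in glutamatergic nuclei. Over all tested genes 16.7% were higher and 20.3% lower in Sst/Npy, 18.2% and 19.1% in Pthlh/Kit, and 17.5% and 15.2% in glutamatergic nuclei. After cocaine none of the tested genes of the list passed in any gate, with 36 tested in D1 nuclei (median log2 fold change -0.04, beside 0.00 over all genes) and 33 in D2 nuclei (-0.05, beside 0.00).

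The genes whose levels were most like those of each member were ranked over 52 sums, the 13 gates in 4 libraries, among 11248 genes with at least 10 CPM in 1 gate, by Pearson's r of log2(CPM + 1). The sums share libraries and depth, so r is a description. For Chrm1 they were Zfp831 (r = 0.908), Ngef (0.894) and Cracdl (0.887). For Chrm2 they were Nwd2 (0.945), Elavl2 (0.903) and Garnl3 (0.902), of which Nwd2 was at 421 CPM in Sst/Npy and 2.87 CPM in D1 nuclei. For Chrm3 they were Grik3 (0.887), Tlcd3b (0.882) and Cdh18 (0.879). Grik3, a kainate receptor subunit gene, had the same order between spiny neurons as Chrm3, with 1.18 CPM in D1 and 216 CPM in D2 nuclei. For Chrm4 the highest were lower, Kcnf1 (0.733), Acd (0.691) and B4galnt1 (0.688), and all 3 were at similar levels in D1 and D2 nuclei (5.84 and 5.47, 80.3 and 79.9, 31.3 and 32.7 CPM), unlike Chrm4. Between the members r ran from -0.14 for Chrm1 with Chrm2 to 0.61 for Chrm2 with Chrm3 and for Chrm1 with Chrm4.

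Some of these counts may hold molecules of other genes. In the GRCr8 RefSeq annotation Chrm1 overlaps no other gene, Chrm4 overlaps 33 bases of Mdk, Chrm2 overlaps the long non-coding gene LOC102554507 by 1134 bases and holds Mir490, and Chrm3 overlaps the long non-coding gene LOC134482864 by 12337 bases. The strand setting of the counting is not given in the sources used here. Mdk was at 3.44 CPM in D1 and 6.79 CPM in D2 nuclei, the reverse of the order of Chrm4.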

How the data were processed

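Per the file headers, the authors made the deposited matrices of UMI counts per gene and nucleus with Cell Ranger 6.1.2, and rn7 is named in the submitters' processing notes. These counts are whole numbers with no normalization, from 10x Genomics 3′ v3 libraries per the labels' protocols, and whether intron or antisense reads were counted is not given in the sources used here. Of 26228 barcodes, 4 were dropped for fewer than 200 genes or over 5% mitochondrial UMIs, and 1381 were removed as doublets by Scrublet score at 0.8% per 1000 nuclei (scanpy 1.11.5, Python 3.11.15). A neuron needed at least 3 UMIs of at least 2 of Rbfox3, Snap25 and Syt1 at 10 or more per 10000 UMIs and no glial list at 20 or more per 10000, and a gate needed at least 3 UMIs from at least 2 of its markers (4 UMIs in the stricter gate). Spiny gates also needed general spiny markers, the eccentric gate Casz1 UMIs and the D1 and D2 gates none, and 416 nuclei that met several gates and 5133 that met none stayed out. Reln or Htr4 nuclei needed 2 UMIs of the one gene and 0 of the other. These limits were set after marker counts were seen. Clusters came from leidenalg 0.10.2 at resolution 0.5 (30 principal components, 15 neighbours, 26 clusters).

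Raw counts were summed per library and gate and tested with edgeR 4.0.16 (quasi-likelihood, TMM scaling, filterByExpr, R 4.3.3) on all genes, with Benjamini-Hochberg adjustment at 0.05. Sex was the covariate for cocaine against saline, and library the block between gates. The test was also run on simulated data with known changes in well-counted genes, a fixed spread and no sex effect. That run does not show how the test performs for members with few UMIs. CPM is UMIs per 1000000 of a gate's total in a library. Alternatives were DESeq2 1.42.0, limma 3.58.1, no TMM scaling, no filter on low counts, no sex covariate, doublets kept, a stricter gate, clusters in place of gates, and each library left out. Fits of cocaine within a gate or subset with a library left out also had no sex covariate, and kept 1 library in a treatment. The comparisons of Reln with Htr4 nuclei under cocaine, of Pthlh/Kit nuclei under cocaine, of cholinergic nuclei in 3 libraries and of glutamatergic nuclei without 1 cluster were chosen after seeing the data. The rule for naming took the 4 members with Chrm5, genes of a pathway list that passed the threshold, its acetylcholine genes and the most abundant gene of each branch, and the 3 genes most like each member. Pathway genes that passed are named for D1 against D2 nuclei, except 1 that is counted but not reported here, and elsewhere as examples chosen after their values were seen. The members and lists were chosen with earlier results of these data known. Counting intervals are exact 95% intervals of counting error only.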

Additional observations from a re-analysis of the deposited data

Results flagged for a closer look

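In 4 combinations of a member and a gate the levels of one sex moved one way between saline and cocaine and those of the other sex the opposite way with both 95% counting intervals clear of 0, each resting on 1 library per treatment and sex, and the difference between the sexes was not tested. The log2 ratio of cocaine to saline for Chrm2 in glutamatergic nuclei was -1.38 in females and 1.24 in males, beside shares of cluster 17 nuclei that were also larger in the saline female and cocaine male libraries (21 of 31, 10 of 34, 67 of 177 and 59 of 83). For Chrm3 in Grm8/Chst9 nuclei it was 0.62 in females and -0.51 in males, from 206 to 391 UMIs per library. In Klhl1/Htr7 nuclei it was 0.62 in females and -1.23 in males for Chrm2, and 0.55 and -0.95 for Chrm3, and the cocaine male library held 14 of these nuclei. Their part in the values was not tested.

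Chrm5, the remaining muscarinic receptor gene, had a cocaine effect that differed between Reln and Htr4 nuclei of the D1 gate, by 2.01 on the log2 scale (edgeR interaction, adjusted p = 0.0152, with 0.0583% of genes called). Its levels are given under the other observations.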

How the results depend on the processing

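The 18 cocaine results on members were recomputed under 181 alternatives, of which 162 kept the direction and the side of the threshold, 19 turned the direction of an uncalled value and none passed (lowest adjusted p 0.0514, Chrm3 in D2 nuclei without the saline male library). Of 200 alternatives to 26 differences between gates, 190 kept both. Genes called in D1 nuclei, 4 in the reported fit, numbered 9 with DESeq2, 15 without TMM scaling, 155 without a filter on low counts, 0 with no sex covariate (the fit without the pairing of libraries by sex), 40 with doublets kept and 61 in the stricter gate. In D2 nuclei, with 14 in the reported fit, they numbered 1 with DESeq2, 34 without TMM scaling, 103 without the filter, 1 with no sex covariate, 129 with doublets kept, 9 in the stricter gate and 94 with clusters in place of gates. Leaving out 1 library gave 0 to 44 in D1 and 3 to 153 in D2 nuclei. The cocaine value turned to 0.0502 in the stricter gate and 0.0724 with clusters for Chrm4 in Grm8/Chst9 nuclei, to -0.24 with clusters for Chrm3 in Sst/Npy nuclei, and for Chrm3 in glutamatergic nuclei to -0.0484 with clusters and -0.42 without cluster 17, chosen after seeing the data. Between gates, Chrm2 in D1 minus D2 nuclei was called with doublets kept (-1.42), and the calls of Chrm1 in D1 minus eccentric nuclei without TMM scaling (0.27) and of Chrm2 in D2 minus eccentric nuclei with doublets kept (-0.36) were lost. The cause was not tested.

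With each library left out in turn, differences between gates ran from 0.27 to 0.35 for Chrm1 and 0.12 to 0.26 for Chrm4 in D1 minus eccentric nuclei, from -1.71 to -0.56 for Chrm2 in D1 minus D2, from -1.91 to -1.09 for Chrm2 in D2 minus eccentric, and from -0.0551 to 0.14 for Chrm4 in Reln minus Htr4 nuclei. Cocaine values ran from -0.96 to 0.000106 for Chrm3 and -0.0168 to 0.19 for Chrm4 in D1 nuclei, from -0.0678 to 0.23 for Chrm1, -0.35 to -0.0292 for Chrm3 and -0.15 to 0.34 for Chrm5 in D2 nuclei, from -0.31 to 0.11 for Chrm1, -0.41 to 0.49 for Chrm3 and -0.46 to 0.35 for Chrm4 in Grm8/Chst9 nuclei, from -0.00236 to 0.56 for Chrm1 in eccentric nuclei, from -0.58 to -0.29 for Chrm2 in Sst/Npy nuclei, from -0.0286 to 0.70 for Chrm1 and -0.83 to 0.60 for Chrm2 in glutamatergic nuclei, from -0.24 to 0.10 for Chrm4 in Reln nuclei, and from -0.0201 to 0.34 for Chrm4 and -0.13 to 0.56 for Chrm1 in Htr4 nuclei. The fits behind these cocaine values also had no sex covariate. DESeq2 gave no adjusted p for Chrm3 in D1 nuclei or for Chrm1 and Chrm5 in Reln nuclei. Chrm1 in glutamatergic nuclei without cluster 17, and Chrm2 in D1 minus D2 and D2 minus eccentric nuclei in the stricter gate, did not pass the filter. Levels of a few UMIs (Chrm1 and Chrm4 in interneurons, Chrm2 in spiny neurons) are limited by counting.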

Other observations

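Chrm5, which encodes the Gq-coupled M5 receptor and was not among the 4 genes followed above, was the receptor of the family with a called cocaine difference in a subset of D1 nuclei. In the D1 gate it was at 27.7, 30.8, 40.8 and 44.2 CPM in the saline female, saline male, cocaine female and cocaine male libraries, groups that did not overlap. The log2 fold change was 0.52 (edgeR adjusted p = 0.260), which was not called. It was called in the stricter gate (0.63, adjusted p = 0.0153) and with no filter on low counts (0.53, adjusted p = 0.00217), and not under the other alternatives. In Reln nuclei of the D1 gate it was at 19.3 and 38.9 CPM in saline and 73.3 and 71.2 CPM in cocaine libraries, a log2 fold change of 1.38 (adjusted p = 0.000383, with 1.15% of genes called). Dropping only the sex covariate gave 1.37 (edgeR adjusted p = 0.0108). Fits with 1 library left out had no sex covariate either, and kept 1 library in a treatment. Their log2 fold changes were 1.32 (cocaine female left out), 1.41 (cocaine male), 0.89 (saline female) and 1.90 (saline male). Not all of these fits kept the call. They cannot show whether the missing library or the missing covariate was the reason. Shares of Reln nuclei with a Chrm5 UMI were 14.4%, 19.6%, 15.6% and 21.6%, which overlapped between the treatments. This subset is set by Reln UMIs, and Reln itself was at 675, 607, 1113 and 1071 CPM in it. The rule may thus take different nuclei in the treatments, and its part in the Chrm5 value was not tested. In D1 nuclei of cluster 2, with no limit on Reln, Chrm5 was at 29.6, 41.7, 55.6 and 58.4 CPM. In Htr4 nuclei Chrm5 was at 23.6, 21.9, 13.0 and 14.02 CPM, with a log2 fold change of -0.74 (adjusted p = 0.767, with 0.0392% of genes called). Without the saline female library the difference between the subsets was 1.60 and not called (adjusted p = 0.166), and without each other library it was 1.90 to 2.70 and called.

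Chrm5 overlaps Aven by 38236 bases in the GRCr8 annotation, so its UMIs cannot be told apart from Aven molecules where strand was not used. Aven was at 22.8, 31.4, 34.1 and 34.9 CPM in the Reln nuclei and at 15.8, 15.7, 12.0 and 21.7 CPM in the Htr4 nuclei. The comparison of these subsets was chosen after the data were seen.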
